A study of Mus musculus with 12 samples.

Results

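The genes described here are 35 genes of glucose uptake, glycolysis, lactate handling, the pentose phosphate pathway and the hypoxia response, measured by bulk RNA-seq in murine Lin-Sca+Kit+ (LSK) BM cells with and without expression of BCR::ABL1. They are defined by gene symbol and pathway role, with no measured value in the rule, and all 35 were found among the 56748 Ensembl identifiers of each library. In the SCLtTA/BCR-ABL double transgenic (DTG) model, the SCL-tTA transgene confines the human oncogene BCR::ABL1 to haemopoietic cells of the stem and progenitor compartment, and tetracycline (TET) in the drinking water keeps it off. BM of DTG mice (CD45.2), pooled from animals of both sexes, was transplanted into B6.SJL recipients (CD45.1) aged 8 to 12 weeks that had received divided doses of 4.25 Gy, and every recipient had TET for the first 2 weeks. The CTRL group (TET on, n = 6 libraries) stayed on TET. The CML 2wk group (TET off, n = 6 libraries) had TET removed for 2 weeks, after which CD45.2+ LSK cells of both groups were sorted. Both groups therefore carry the same transgenes, the same irradiation and the same transplant, and differ in TET, so an effect of TET itself and one of BCR::ABL1 cannot be told apart. The labels also give Male for every CTRL library and Female for every CML 2wk library, so sex and BCR::ABL1 cannot be told apart. Xist was counted at 3790 to 4420 CPM (counts per 1000000 counts of the scaled library) in CTRL and 2180 to 3500 CPM in CML 2wk, so it was counted under both labels. Nothing in the labels ties a library to a named mouse, so p-values measure the spread between these libraries.

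Glycolysis takes up glucose through membrane transporters, traps it by phosphorylation and splits it into pyruvate, with a net gain of ATP and NADH. Pyruvate is either reduced to lactate, which leaves the cell through monocarboxylate transporters, or carried into mitochondria, where pyruvate dehydrogenase, which the pyruvate dehydrogenase kinases switch off, turns it into acetyl-CoA. The pentose phosphate pathway branches off after the first phosphorylation and yields NADPH and ribose. In low oxygen the transcription factor HIF-1 raises many of these genes, and prolyl hydroxylases mark its alpha subunit for destruction when oxygen is present. Quiescent haemopoietic stem cells of the BM are known for their reliance on glycolysis, and BCR::ABL1 signalling is known to increase glucose uptake in leukaemic cells.

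Total counts per library were 22804754 to 41832868 in CTRL and 16150817 to 25070105 in CML 2wk (two-sided exact permutation test, p = 0.0108). The mitochondrial share was 0.816% to 1.288% of counts in CTRL and 2.258% to 2.973% in CML 2wk (two-sided exact permutation test, p = 0.00216). CML 2wk replicate 2 had the highest sum of the 12 stromal and endothelial markers, at 5570 CPM, against 230 to 284 CPM in CTRL and a CML 2wk median of 224 CPM. It was not the only CML 2wk library with stromal RNA. Col1a1 had a CML 2wk mean of 52.0, a median of 0.341 and a highest value of 221 CPM, which 1 library alone cannot give. The highest CML 2wk values were 2010 CPM for Fn1, 2630 CPM for Spp1 and 275 CPM for Col3a1. Between the groups of libraries 4 of the 11 tested were called higher, Spp1 and Col3a1 among them, and Fn1 was not called. The CML 2wk medians were 11.5 CPM for Spp1 and 0.331 CPM for Col3a1, against 3.45 and 0.891 CPM in CTRL. For some genes below, the test is given with and without CML 2wk replicate 2, and a fit without it can still hold stromal RNA. The defining markers of the LSK gate were present, with Kit at 681 to 800 CPM in CTRL and 323 to 522 CPM in CML 2wk and Ly6a (Sca-1) at 27.2 to 38.3 and 31.4 to 74.1 CPM, while Cd3e of T cells stayed at or under 1.02 CPM in every library. The 10 LSK markers summed to 2850 to 3220 CPM in CTRL and 1950 to 2430 CPM in CML 2wk, with 7 lower and 2 higher. The 12 mast cell and basophil markers summed to 318 to 434 CPM in CTRL and 515 to 2740 CPM in CML 2wk, with 9 higher and 1 lower. Replicate 2 was the highest CML 2wk library for this sum, and the CML 2wk median was 976 CPM. None of the defining mast cell and basophil markers was at 0 in CML 2wk, where the mast cell chymase gene Cma1 reached 505 CPM. The 12 G2 and M phase genes summed to 3650 to 4420 CPM in CTRL and 2190 to 2760 CPM in CML 2wk, with 7 lower and 3 higher. Mki67 (1440 to 1770 and 485 to 718 CPM) and Top2a (1070 to 1330 and 590 to 907 CPM) were the most abundant and weighed most in this sum. The 3 higher genes were Cdk1, Ccnb1 and Bub1, with Ccnb1 at 90.5 to 117 and 124 to 171 CPM. Neutrophil markers summed to 2470 to 4840 CPM in CTRL and 3220 to 8670 CPM in CML 2wk (5 of 12 higher, 5 lower). They did not move as 1 set: Elane was higher, at 162 to 267 and 275 to 996 CPM, and Ltf was lower, at 15.0 to 353 and 0.0493 to 44.5 CPM. Erythroid markers summed to 570 to 757 and 402 to 785 CPM (1 of 12 higher, 9 lower, Klf1 at 5.56 to 9.42 and 0.770 to 2.22 CPM), and megakaryocyte markers to 456 to 528 and 201 to 446 CPM (1 of 8 tested higher, 6 lower, Pf4 at 27.9 to 57.9 and 2.72 to 7.65 CPM). Replicate 2 was also the highest CML 2wk library for the megakaryocyte sum, with a CML 2wk median of 268 CPM. Monocyte and macrophage markers summed to 479 to 704 and 511 to 959 CPM (3 of 10 higher, 2 lower), B cell markers to 437 to 784 and 31.3 to 370 CPM (3 of 10 lower, none higher), T and NK cell markers to 94.9 to 122 and 96.8 to 209 CPM (2 of 8 tested higher, 3 lower), and S phase genes to 2910 to 3550 and 2930 to 3610 CPM (4 of 12 higher, 6 lower). In bulk RNA, more cells of a type and more RNA per cell cannot be told apart, and the part that these lists and the mitochondrial share have in the values below was not tested.

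Between the groups, 13 of the 35 genes rose in CML 2wk, 10 fell and 12 did not pass the test (edgeR quasi-likelihood test, Benjamini-Hochberg adjusted p under 0.05 over 18438 genes). This is 65.7% of the genes, beside 59.5% of all genes tested. In CML 2wk 37.1% were higher and 28.6% were lower, against 30.6% and 29.0% of all genes, so the counts lie near the background of a comparison in which most genes moved. The median log2 fold change was 0.14, and 0.07 over all genes. The 2 groups of libraries did not overlap for 15 of the 35 genes (42.9%, against 37.6% of all genes), with CML 2wk above CTRL in 10 and below it in 5. A change of at least 1 on the log2 scale was seen in 7 genes, and in 16.4% of all genes. By pathway step, 3 of 5 genes of lower glycolysis and 3 of 4 of lactate and monocarboxylate transport rose, 2 of 3 hexokinase genes fell, and none of the 5 pentose phosphate genes passed the test.

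**Figure D1:**
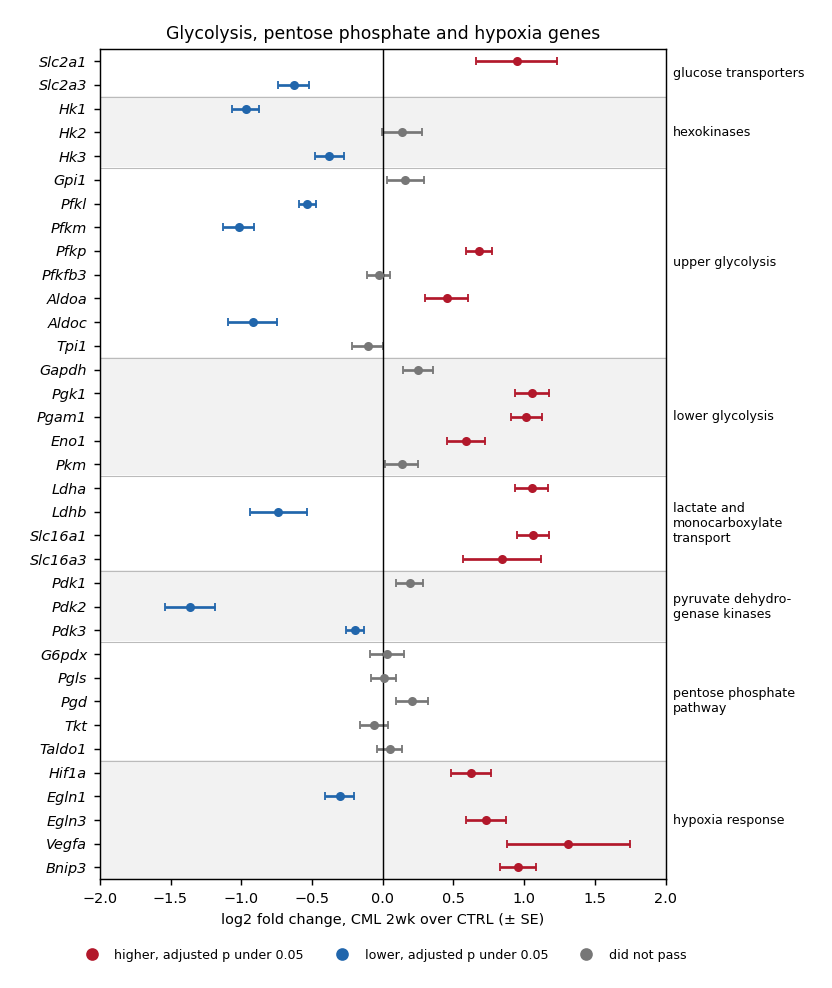
Log2 fold change of CML 2wk over CTRL (points, with SE as bars) for the 35 genes, arranged by pathway step, with 6 libraries in each group. Genes that passed the test at an adjusted p under 0.05 are red when higher and blue when lower. Pdk2 is the lowest at -1.36 and Vegfa the highest at 1.31, and the 5 pentose phosphate genes lie between -0.06 and 0.21.

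HIF-1 binds the core letters ACGTG or GCGTG, and MYC and its relatives bind the E-box CACGTG, which contains ACGTG on both strands. These letters were searched on both strands in the 250 bases before each RefSeq start (GRCm38.p6), which covered 34 of the 35 genes. ACGTG was present for 19 of the 34 genes, against 18.5% of the 27025 genes in the promoter collection. By direction these were 11 of the 13 genes that rose, 5 of 9 that fell and 3 of the 12 that did not pass. GCGTG was found for 23 of 34 genes (30.9% of all genes) in more even parts, namely 8 of 13, 7 of 9 and 8 of 12. A match of either ACGTG or GCGTG was present for 32 of 34 genes (41.5% of all genes). By direction this was 13 of 13, 9 of 9 and 10 of 12, so it did not separate genes that rose from genes that fell. CACGTG was found for 7 of 34 (6.86% of all genes). Letters in a window are a description and do not show that a factor binds there. The 35 genes were chosen by pathway, hypoxia response included, and the promoter collection was not limited to the genes tested. The difference in shares is therefore not a test. The 5 windows below are examples. Those of Ldha, Pgk1 and Bnip3 belong to genes that rose and hold ACGTG. Pdk2 fell although its window holds 1 E-box, as that of Bnip3 does. Pfkl fell and holds no ACGTG, with 1 match of GCGTG that is not capitalised. Ldha and Pdk2 each have another start whose window holds no ACGTG and is not shown, and a gene was counted above if any of its windows held the letters. Each is written 5′ to 3′ on the strand of its gene, up to the base before the start, with ACGTG or its reverse complement CACGT in capitals.
Ldha, chr7:46845554-46845803, plus strand: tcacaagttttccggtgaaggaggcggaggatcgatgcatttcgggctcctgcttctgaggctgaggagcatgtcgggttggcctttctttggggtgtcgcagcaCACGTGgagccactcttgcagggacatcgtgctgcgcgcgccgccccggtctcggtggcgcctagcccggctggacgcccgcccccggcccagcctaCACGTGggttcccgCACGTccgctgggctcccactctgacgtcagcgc
Pgk1, chrX:106186850-106187099, plus strand: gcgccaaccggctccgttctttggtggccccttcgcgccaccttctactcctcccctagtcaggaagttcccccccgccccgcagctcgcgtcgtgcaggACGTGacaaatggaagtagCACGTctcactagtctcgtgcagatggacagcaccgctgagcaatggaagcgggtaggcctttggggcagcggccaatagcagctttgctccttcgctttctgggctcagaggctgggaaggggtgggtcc
Bnip3, chr7:138909507-138909756, minus strand: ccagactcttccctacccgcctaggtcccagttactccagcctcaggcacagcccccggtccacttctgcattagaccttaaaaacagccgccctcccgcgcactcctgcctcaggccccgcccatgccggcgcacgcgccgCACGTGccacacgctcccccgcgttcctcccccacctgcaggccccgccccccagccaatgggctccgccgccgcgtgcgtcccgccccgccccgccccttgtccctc
Pdk2, chr11:95041372-95041621, minus strand: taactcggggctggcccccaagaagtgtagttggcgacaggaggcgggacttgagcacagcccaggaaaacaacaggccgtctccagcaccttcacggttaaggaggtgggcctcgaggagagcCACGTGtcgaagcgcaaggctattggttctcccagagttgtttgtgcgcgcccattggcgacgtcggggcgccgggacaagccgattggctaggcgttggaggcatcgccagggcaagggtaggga
Pfkl, chr10:78009808-78010057, minus strand: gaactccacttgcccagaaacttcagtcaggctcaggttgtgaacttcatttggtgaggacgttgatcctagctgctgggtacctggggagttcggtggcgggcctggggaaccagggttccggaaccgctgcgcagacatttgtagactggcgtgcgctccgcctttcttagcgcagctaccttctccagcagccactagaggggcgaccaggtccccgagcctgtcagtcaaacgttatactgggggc
The Ldha window holds 5 matches, of which 4 are the 2 strands of 2 E-boxes. Bnip3 and Pdk2 each hold 1 E-box, counted as 2 matches, and Pgk1 holds 2 separate matches and no E-box.

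Glucose enters haemopoietic cells through transporters such as GLUT1, encoded by Slc2a1, and the high-affinity transporter GLUT3, encoded by Slc2a3. Slc2a1 was at 19.5 (lowest), 21.5 (median) and 23.1 CPM (highest) in CTRL and at 24.5, 29.5 and 98.4 CPM in CML 2wk. Every CML 2wk library was above every CTRL library, and replicate 2 set the top of the range, since the next library was at 36.7 CPM. The gene was 1.93-fold higher (log2 fold change 0.95 ± 0.289 SE, adjusted p = 0.0112), and without replicate 2 the log2 fold change was 0.46 (adjusted p = 0.000622). Slc2a3 moved the other way, from 74.2, 93.9 and 97.2 CPM to 44.4, 58.6 and 75.8 CPM. The ranges met only through 1 library of each group, and it was 1.55-fold lower (log2 fold change -0.63 ± 0.111 SE, adjusted p = 0.000205). Values per kilobase here and below divide by the joined length of all annotated exons of a gene, which can differ from the transcript in use. Per kilobase, Slc2a1 was the lesser of the pair in every CTRL library, with 0.434 to 0.603 counts for each count of Slc2a3. In CML 2wk this ratio was 0.986 to 2.68 and did not overlap with CTRL.

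Hexokinases trap glucose as glucose-6-phosphate, and the genes of 3 of them were examined. Hk1, the housekeeping form bound to mitochondria, was at 274, 314 and 345 CPM in CTRL and 131, 160 and 190 CPM in CML 2wk. The groups were far apart, with a 1.96-fold lower level in CML 2wk (log2 fold change -0.97 ± 0.0927 SE, adjusted p = 7.03e-07). Hk3, the form typical of myeloid cells, went from 141, 156 and 182 CPM to 101, 116 and 162 CPM and was 1.30-fold lower (log2 fold change -0.38 ± 0.102 SE, adjusted p = 0.00512). Its highest CML 2wk library, replicate 6, lay inside the CTRL range, and the next was at 119 CPM. Hk2, the inducible form and a HIF-1 target, was at 62.0, 77.0 and 88.0 CPM in CTRL and 57.6, 82.3 and 118 CPM in CML 2wk and did not pass the test (log2 fold change 0.14, unadjusted 95% interval -0.17 to 0.44). With Hk1 lower, the ratio of Hk2 to Hk1 per kilobase was 0.323 to 0.380 in CTRL and 0.597 to 0.970 in CML 2wk. Hk1 made up a median of 40.2% of hexokinase transcripts per kilobase in CTRL and 29.0% in CML 2wk. The summed hexokinase level per kilobase was 80.9 to 103 CPM in CTRL and 59.9 to 69.8 CPM in CML 2wk, so the family as a whole was lower in every CML 2wk library.

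Phosphofructokinase commits sugar to glycolysis and exists as liver (Pfkl), muscle (Pfkm) and platelet (Pfkp) subunits. Pfkl was at 121, 130 and 138 CPM in CTRL and 80.7, 89.1 and 100 CPM in CML 2wk, 1.45-fold lower (log2 fold change -0.53 ± 0.0594 SE, adjusted p = 2.87e-06). Pfkm fell 2.03-fold, from 54.1, 58.3 and 65.7 CPM to 22.7, 28.5 and 35.5 CPM (log2 fold change -1.02 ± 0.111 SE, adjusted p = 2.41e-06). Pfkp rose 1.60-fold, from 70.4, 74.6 and 82.3 CPM to 91.0, 123 and 145 CPM (log2 fold change 0.68 ± 0.0909 SE, adjusted p = 1.57e-05). None of the 3 subunit genes overlapped between the groups, so every CML 2wk library had less Pfkl and Pfkm and more Pfkp than every CTRL library. The ratio of Pfkp to Pfkl per kilobase was 0.261 to 0.303 in CTRL and 0.522 to 0.896 in CML 2wk. Pfkp supplied a median of 13.3% of the subunit transcripts per kilobase in CTRL and 29.4% in CML 2wk, while Pfkm went from 41.2% to 26.8%. The sum of the subunits per kilobase was 39.6 to 45.8 CPM in CTRL and 29.4 to 32.6 CPM in CML 2wk. Pfkfb3, which makes the allosteric activator of phosphofructokinase, was at 69.3 to 83.7 CPM in CTRL and 65.4 to 90.2 CPM in CML 2wk (log2 fold change -0.03, 95% interval -0.20 to 0.14).

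Of the remaining 4 genes of upper glycolysis, 1 rose, 1 fell and 2 did not pass. Gpi1, the isomerase before phosphofructokinase, was at 422 to 521 CPM in CTRL and 433 to 759 CPM in CML 2wk and did not pass (log2 fold change 0.16, 95% interval -0.12 to 0.45). Aldolase splits the 6-carbon sugar, and its main gene Aldoa went from 240, 256 and 283 CPM to 257, 340 and 511 CPM. Its ranges overlapped at the lower end of CML 2wk, and the call was near the threshold (log2 fold change 0.45 ± 0.15 SE, adjusted p = 0.0175; without replicate 2 of CML 2wk, 0.31 and 0.0353). The brain form Aldoc was a minor transcript at 5.2, 6.71 and 7.79 CPM in CTRL and was 1.89-fold lower in CML 2wk, at 2.57, 3.40 and 4.84 CPM, with no overlap (log2 fold change -0.92 ± 0.174 SE, adjusted p = 0.000371). Tpi1, which interconverts the triose phosphates, was at 201 to 263 CPM and 167 to 269 CPM and did not pass (log2 fold change -0.11, 95% interval -0.34 to 0.12).

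The lower part of glycolysis turns triose phosphate into pyruvate and returns ATP. Of its 5 genes 3 rose, none fell and 2 did not pass. Pgk1, the kinase of the first ATP-yielding step, was at 107, 124 and 138 CPM in CTRL and 188, 261 and 311 CPM in CML 2wk, a 2.08-fold difference (log2 fold change 1.06 ± 0.12 SE, adjusted p = 3.62e-06). Pgam1, phosphoglycerate mutase, rose 2.02-fold from 49.3, 61.3 and 64.4 CPM to 97.1, 119 and 146 CPM (log2 fold change 1.02 ± 0.108 SE, adjusted p = 1.84e-06). Eno1, enolase, rose 1.5-fold from 172, 202 and 215 CPM to 220, 291 and 403 CPM (log2 fold change 0.59 ± 0.135 SE, adjusted p = 0.00174). In all 3 the lowest CML 2wk library was above the highest CTRL library, by a wide margin for Pgk1 and Pgam1 and a narrow one for Eno1. The enzymes on either side were less different. Gapdh, which oxidises triose phosphate, was at 476, 559 and 637 CPM and 537, 653 and 812 CPM and stayed just outside the threshold (log2 fold change 0.25, unadjusted 95% interval 0.02 to 0.48, adjusted p = 0.0566), and it passed with DESeq2 (adjusted p = 0.0416). Pkm, pyruvate kinase, was at 539, 619 and 663 CPM and 539, 616 and 929 CPM (log2 fold change 0.13, 95% interval -0.12 to 0.38). Pgk1 lies on the X chromosome, like Pdk3 and G6pdx below, and these 3 genes had log2 fold changes of 1.06, -0.20 and 0.03. Processed copies of these genes are common in the mouse genome: Gapdh has 202 near-identical annotated copies, which held at most 7.30% of its counts in a CTRL library and 8.76% in a CML 2wk library. For the other genes the copies held at most 2.56%. How reads that match several places were handled is not given. Reads shared by a gene and its copies may be in neither count, so these shares do not show how far the levels are affected.

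**Figure D2:**
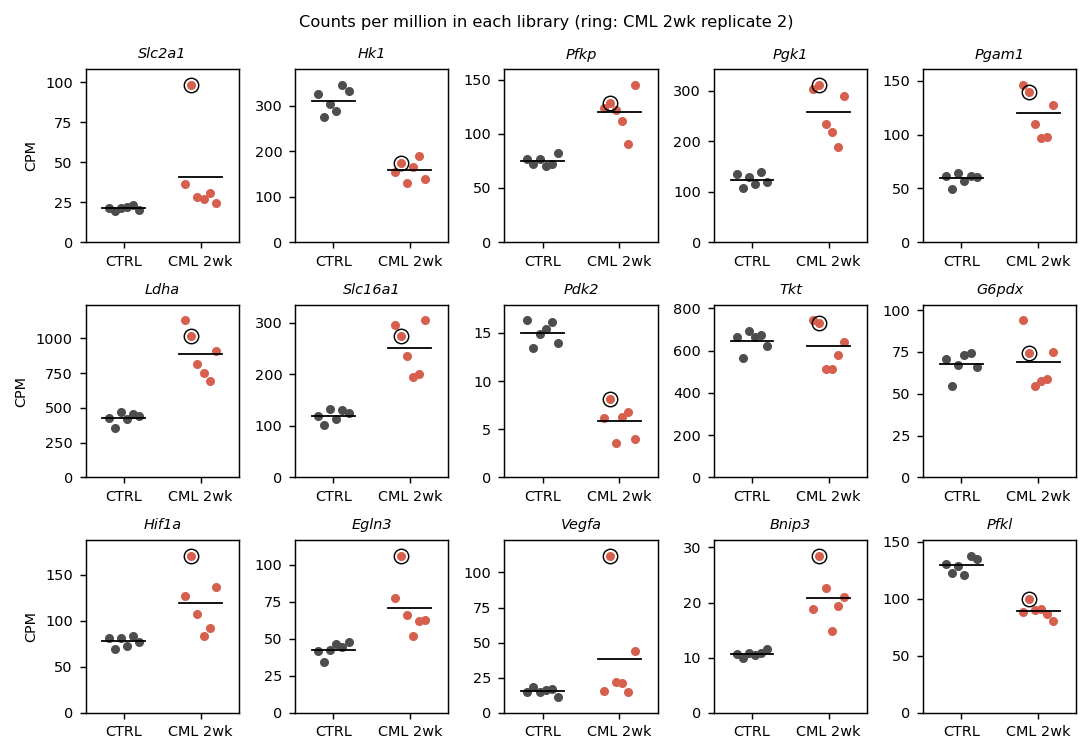
CPM of 15 genes in each of the 6 CTRL (grey) and 6 CML 2wk (red) libraries, with the group mean as a line and a ring on CML 2wk replicate 2. Ldha lies at 358 to 469 CPM in CTRL and 693 to 1130 CPM in CML 2wk, Tkt and G6pdx overlap, and replicate 2 is the top of Slc2a1 at 98.4 CPM and of Vegfa at 112 CPM.

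In summed CPM the lactate genes showed the largest shift of the 8 steps, with a median of 582 in CTRL and 1160 in CML 2wk. Ldha, the lactate dehydrogenase subunit that favours lactate formation, was at 358, 434 and 469 CPM in CTRL and 693, 864 and 1130 CPM in CML 2wk. There was no overlap, and the gene was 2.07-fold higher (log2 fold change 1.05 ± 0.114 SE, adjusted p = 2.28e-06). Its window above held the most ACGTG letters of the 34 genes. Ldhb, the subunit that favours the reverse reaction, went from 10.3, 16.4 and 18.7 CPM to 6.56, 7.95 and 13.5 CPM and was 1.67-fold lower, with overlapping ranges (log2 fold change -0.74 ± 0.203 SE, adjusted p = 0.00595). Ldha already made up 90.8% to 95.3% of lactate dehydrogenase transcripts per kilobase in CTRL, and 97.3% to 98.1% in CML 2wk. The ratio of Ldhb to Ldha per kilobase was 0.0493 to 0.102 in CTRL and 0.0194 to 0.0279 in CML 2wk. Slc16a1 encodes MCT1, which carries lactate and pyruvate across the membrane. It rose 2.09-fold, from 101, 123 and 132 CPM to 195, 254 and 305 CPM, again without overlap (log2 fold change 1.06 ± 0.116 SE, adjusted p = 2.44e-06). Slc16a3 encodes the lactate exporter MCT4, which is typical of highly glycolytic cells, and was a minor transcript at 9.57, 10.5 and 14.8 CPM in CTRL and 12.2, 16.4 and 43.9 CPM in CML 2wk. The ranges overlapped, and replicate 2 held the highest CML 2wk value, with the next at 17.4 CPM. Its log2 fold change was 0.84 ± 0.273 SE (adjusted p = 0.0155) with all libraries and 0.43 (adjusted p = 0.0117) without replicate 2. The sum of the 4 genes was 486 to 626 CPM in CTRL and 912 to 1460 CPM in CML 2wk.

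Pyruvate dehydrogenase kinases inhibit the conversion of pyruvate to acetyl-CoA inside mitochondria, and none of the 3 genes rose. Pdk1, a HIF-1 target, was at 137, 154 and 173 CPM in CTRL and 153, 164 and 216 CPM in CML 2wk. It did not pass (log2 fold change 0.19, 95% interval -0.01 to 0.39), except with upper-quartile scaling (adjusted p = 0.0178). Pdk2 showed the largest decrease of the 35 genes, from 13.4, 15.2 and 16.3 CPM to 3.55, 6.24 and 8.13 CPM. All CML 2wk libraries were below all CTRL libraries, and the gene was 2.57-fold lower (log2 fold change -1.36 ± 0.176 SE, adjusted p = 1.16e-05). Pdk3 went from 64.5, 69.9 and 71.9 CPM to 51.0, 61.4 and 66.6 CPM, a 1.15-fold lower level with overlap (log2 fold change -0.20 ± 0.0645 SE, adjusted p = 0.0163). The ratio of Pdk2 to Pdk1 per kilobase was 0.216 to 0.256 in CTRL and 0.0547 to 0.103 in CML 2wk. Pdk2 was the least abundant of the 3 per kilobase, and the summed level of the kinases overlapped between the groups, at 215 to 261 CPM and 214 to 285 CPM.

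None of the 5 pentose phosphate genes passed the test, and the libraries of the groups overlapped for each. G6pdx, the rate-limiting glucose-6-phosphate dehydrogenase, was at 54.5, 69.1 and 74.3 CPM in CTRL and 54.9, 66.6 and 93.9 CPM in CML 2wk (log2 fold change 0.03, 95% interval -0.23 to 0.29). Pgls, the lactonase of the next step, was at 71.7 to 90.1 CPM and 64.8 to 88.1 CPM (log2 fold change 0.01, 95% interval -0.18 to 0.20). Pgd, which gives the second NADPH, was at 110 to 130 CPM and 108 to 185 CPM, with the interval reaching furthest upwards (log2 fold change 0.21, 95% interval -0.03 to 0.45), and it passed with upper-quartile scaling (adjusted p = 0.0297). The genes of the non-oxidative branch also overlapped. Tkt, transketolase, was at 564 to 694 CPM and 514 to 743 CPM (log2 fold change -0.06, 95% interval -0.27 to 0.15), and Taldo1, transaldolase, was at 146 to 177 CPM and 147 to 208 CPM (log2 fold change 0.05, 95% interval -0.14 to 0.23). With TMM scaling and all libraries, these unadjusted intervals exclude a change of 0.5 on the log2 scale in either direction for all 5 genes, most narrowly for Pgd. Intervals were not computed for other settings, and with upper-quartile scaling the log2 fold change of Pgd was 0.28. Their summed level was 946 to 1150 CPM in CTRL and 912 to 1260 CPM in CML 2wk.

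Of the 5 hypoxia genes 4 rose and 1 fell. Hif1a, the oxygen-regulated subunit of HIF-1, was at 69.7, 79.5 and 83.1 CPM in CTRL and 84.0, 117 and 171 CPM in CML 2wk, with the lowest CML 2wk library just above the highest CTRL library. It was 1.54-fold higher (log2 fold change 0.62 ± 0.141 SE, adjusted p = 0.00154). The prolyl hydroxylases that mark it diverged. Egln1 (PHD2), the main one in most cells, went from 49.4, 56.4 and 62.1 CPM to 36.3, 43.5 and 61.1 CPM and was 1.24-fold lower (log2 fold change -0.31 ± 0.105 SE, adjusted p = 0.0210). Egln3 (PHD3), itself induced by HIF-1, rose 1.66-fold from 34.0, 43.1 and 47.9 CPM to 51.8, 64.0 and 106 CPM (log2 fold change 0.73 ± 0.144 SE, adjusted p = 0.000516). Egln3 did not overlap between groups, whereas Egln1 overlapped through replicate 2 of CML 2wk. Without that replicate the log2 fold change of Egln1 was -0.42 (adjusted p = 0.000262). Their ratio per kilobase, Egln3 over Egln1, was near 1 in CTRL (0.917 to 1.15) and 1.63 to 2.44 in CML 2wk. Bnip3, a HIF-1 target that promotes removal of mitochondria, rose 1.94-fold from 9.87, 10.8 and 11.6 CPM to 14.9, 20.2 and 28.5 CPM, without overlap (log2 fold change 0.96 ± 0.129 SE, adjusted p = 1.71e-05). Vegfa, the angiogenic growth factor, had the largest increase of the 35 genes with all libraries, and the largest error. It was at 11.1, 15.7 and 18.6 CPM in CTRL and 14.6, 21.5 and 112 CPM in CML 2wk. Only replicates 2 and 6 of CML 2wk, at 112 and 43.9 CPM, lay well above CTRL. The log2 fold change was 1.31 ± 0.435 SE (adjusted p = 0.0177) with all libraries and 0.59 (adjusted p = 0.0414) without replicate 2, and the call was lost with limma-voom (adjusted p = 0.0724).

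**Figure D3:**
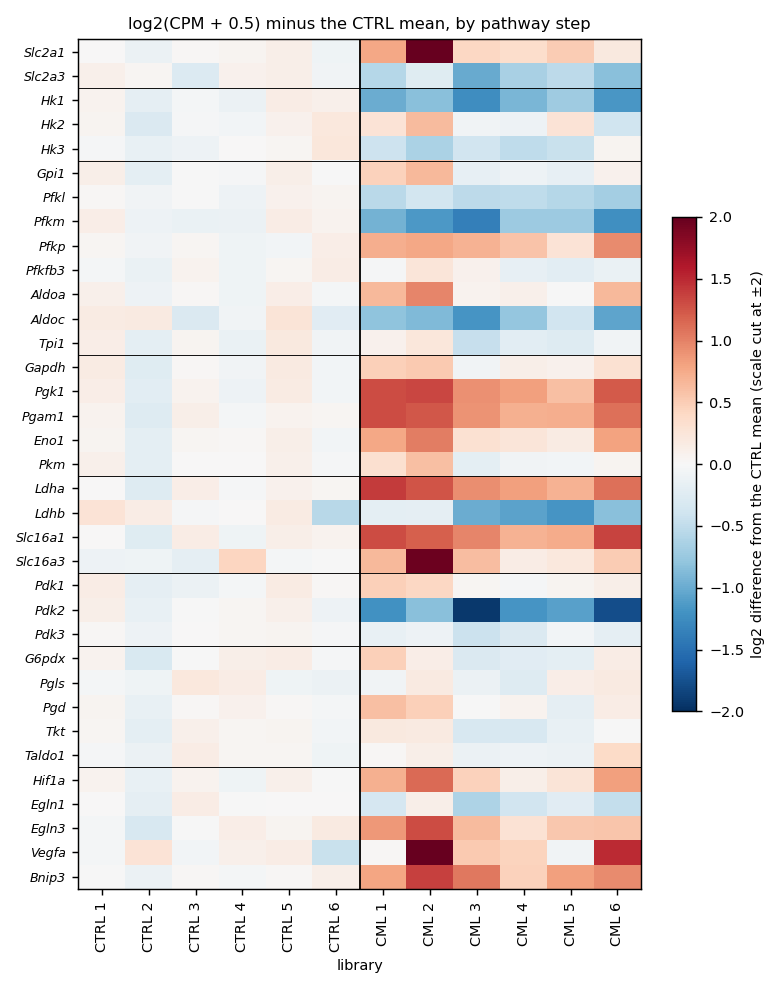
Difference of log2(CPM + 0.5) from the CTRL mean for the 35 genes (rows, by pathway step) in the 12 libraries (columns), with colours cut at 2 in either direction. Pgk1, Pgam1, Ldha and Slc16a1 are red in all 6 CML 2wk libraries, Hk1, Pfkl, Pfkm and Pdk2 are blue in all 6, and CML 2wk replicate 2 has the strongest Slc2a1, Slc16a3 and Vegfa.

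Related genes were also set against each other within each library. The ratios of Slc2a1 to Slc2a3, Hk2 to Hk1, Hk3 to Hk1, Pfkp to Pfkl and Egln3 to Egln1 were above CTRL in every CML 2wk library. Those of Pfkm to Pfkl, Aldoc to Aldoa, Ldhb to Ldha and Pdk2 to Pdk1 were below it in every CML 2wk library. The ratio of Slc16a3 to Slc16a1 overlapped, at 0.0602 to 0.109 in CTRL and 0.0430 to 0.134 in CML 2wk, and so did Pdk3 to Pdk1, at 1.25 to 1.47 and 0.872 to 1.26. Such ratios do not depend on how libraries are scaled. They are given as values without a test, because both genes of most pairs were already called above.

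**Figure D4:**
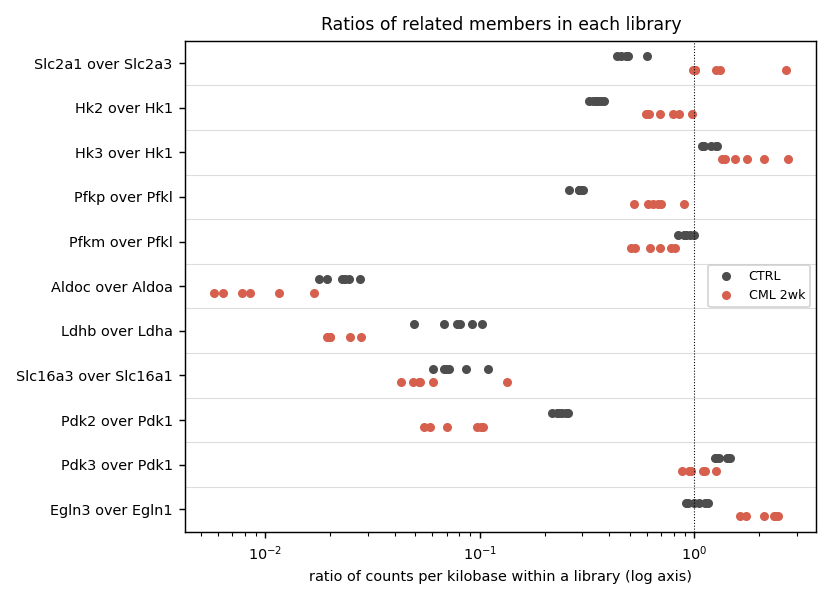
Ratio of 11 gene pairs, in counts per kilobase of annotated exon, within each CTRL (grey) and CML 2wk (red) library on a log axis, with a dotted line at 1. The Ldhb to Ldha ratio lies at 0.0493 to 0.102 in CTRL and 0.0194 to 0.0279 in CML 2wk, and the Slc16a3 to Slc16a1 and Pdk3 to Pdk1 ratios overlap.

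The order of the genes by level, in CPM per kilobase of annotated exon, also changed at the top. In CTRL the highest mean levels were those of Gapdh (137), Ldha (129) and Pkm (123), whose ranges of 115 to 154, 108 to 142 and 108 to 133 overlapped. Aldoa (88.8), Tkt (87.9), Tpi1 (83.9), Gpi1 (75.0) and Taldo1 (73.2) came next. Neighbours in this order overlapped, while the range of Aldoa (82.3 to 97.2) lay above those of Gpi1 (65.5 to 80.8) and Taldo1 (67.0 to 81.4). In CML 2wk Ldha was first at 268 (209 to 343), above the full range of Gapdh (130 to 196) and of Pkm (108 to 186). This separation rests on the length term. In CPM without it the CML 2wk ranges overlapped, at 693 to 1130 for Ldha, 537 to 812 for Gapdh and 539 to 929 for Pkm. Pgk1 went from 55.2 to 115 and thereby reached the level of Aldoa, which was at 121. The lowest level in both groups was that of Aldoc, at 2.00 and 1.06. The summed CPM of the 35 genes was 4950 to 6040 in CTRL and 5700 to 8400 in CML 2wk.

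**Figure D5:**
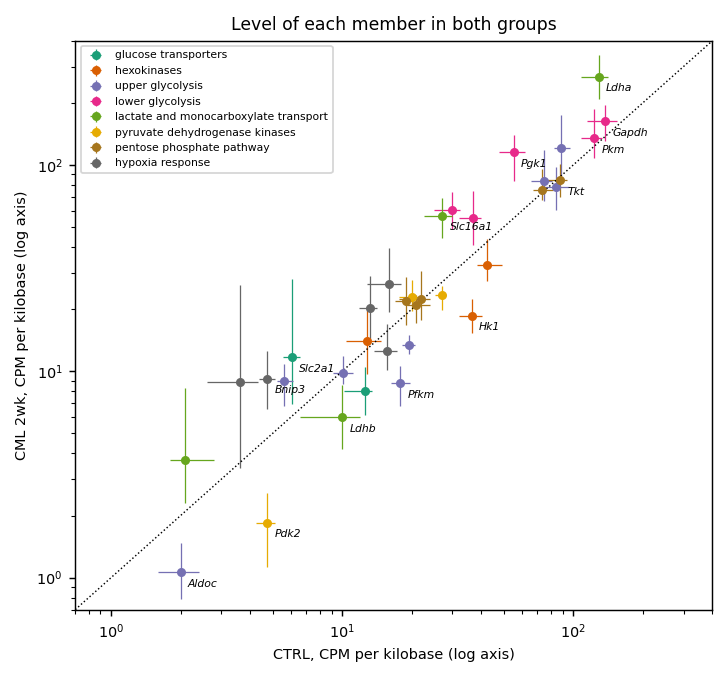
Mean level in CPM per kilobase of annotated exon in CTRL (x axis) and CML 2wk (y axis), both on log axes, for the 35 genes, coloured by pathway step, with bars from the lowest to the highest of 6 libraries and a dotted line of equal level. Ldha is at the top right with 129 in CTRL and 268 in CML 2wk, and Pdk2 and Hk1 lie below the line.

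The spread between libraries was larger in CML 2wk. The median SD of log2 CPM over the 35 genes was 0.129 in CTRL and 0.281 in CML 2wk, beside 0.144 and 0.302 over all genes tested. Replicate 2 was the highest CML 2wk library for 21 of the 35 genes and the lowest for 1, and CTRL replicate 2 was the lowest CTRL library for 26. The most uneven genes in CML 2wk were Vegfa (SD 1.12, and 0.631 without replicate 2), Slc2a1 (0.741 and 0.217) and Slc16a3 (0.672 and 0.238). Pfkl was the most even, with an SD of 0.101. Over all genes, exon length moved with the fold change (Spearman's rho -0.352 across 17803 genes, which share the same 12 libraries), and the median exon length was 2722.5 bases for genes that rose and 5239 for those that fell. Among the 35 genes the medians were 3506 bases for those that rose and 3467 for those that fell (rho -0.0891).

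Other genes of the same pathways gave a mixed picture. Of 33 further genes of glycolysis and pyruvate use, 29 were tested, 8 rose, 5 fell and 16 did not pass, with a median log2 fold change of 0.16. Over all genes tested 30.6% rose and 29.0% fell, so this list held no excess of calls in either direction. The largest increases were those of the transporter gene Slc2a6 (4.16 to 5.24 CPM in CTRL, 8.19 to 17.6 CPM in CML 2wk, log2 fold change 1.32 ± 0.172 SE, adjusted p = 1.20e-05), of Mpc1 (12.7 to 15.7 and 26.4 to 46.5 CPM, log2 fold change 1.30 ± 0.122 SE, adjusted p = 5.96e-07) and of Dld (85.2 to 98.6 and 154 to 239 CPM, log2 fold change 1.09 ± 0.0924 SE, adjusted p = 2.59e-07). Mpc1 is a subunit of the carrier that brings pyruvate into mitochondria and Dld a subunit of pyruvate dehydrogenase, so both act on the route that competes with lactate. Pklr, the liver and red cell pyruvate kinase, fell to near the counting limit (1.38 to 4.29 and 0 to 1.78 CPM, adjusted p = 0.00161). Pfkfb2, a relative of Pfkfb3, had a log2 fold change of -0.56 ± 0.111 SE (adjusted p = 0.000525) and the urate transporter gene Slc2a9 of -0.47 ± 0.105 SE (adjusted p = 0.00141).

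In the pentose phosphate pathway, 7 of 8 further genes were tested, and 3 rose, 1 fell and 3 did not pass, with a median of -0.14. This stands beside 30.6% higher and 29.0% lower over all genes. The genes that rose were Prps1, which makes the ribose donor of nucleotide synthesis (55.8 to 71.4 and 115 to 184 CPM, log2 fold change 1.09 ± 0.109 SE, adjusted p = 1.03e-06), the epimerase gene Rpe (log2 fold change 0.97 ± 0.0934 SE, adjusted p = 7.82e-07) and the ribokinase gene Rbks (log2 fold change 0.91 ± 0.112 SE, adjusted p = 7.40e-06). H6pd, the glucose-6-phosphate dehydrogenase of the endoplasmic reticulum, was lower by a small amount (log2 fold change -0.18 ± 0.0657 SE, adjusted p = 0.0294), and this call was lost in 8 of 23 alternative settings.

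Of 12 further oxygen sensing genes, 11 were tested, 4 rose, 4 fell and 3 did not pass (30.6% higher and 29.0% lower over all genes). Those with the largest increases, Cul2 (log2 fold change 0.91 ± 0.106 SE, adjusted p = 4.11e-06), Eloc (log2 fold change 0.91 ± 0.0984 SE, adjusted p = 2.13e-06) and Rbx1 (log2 fold change 0.63 ± 0.108 SE, adjusted p = 0.000163), encode parts of the ubiquitin ligase that removes HIF alpha subunits. Vhl, the subunit of this ligase that recognises HIF and a gene named here after its values were seen, fell from 29.5 to 34.5 CPM in CTRL to 20.1 to 30.4 CPM (log2 fold change -0.29 ± 0.0983 SE, adjusted p = 0.0200). Among those that fell were Hif1an, the asparaginyl hydroxylase that restrains HIF activity (74.9 to 83.6 and 32.9 to 48.8 CPM, log2 fold change -0.93 ± 0.0871 SE, adjusted p = 5.80e-07), Arnt, the partner of HIF-1 alpha (log2 fold change -0.35 ± 0.0806 SE, adjusted p = 0.00181), and the prolyl hydroxylase gene Egln2 (log2 fold change -0.30 ± 0.0690 SE, adjusted p = 0.00174). Of 23 further hypoxia targets, 20 were tested, 10 rose, 5 fell and 5 did not pass (the same 30.6% and 29.0% over all genes), with a median log2 fold change of 0.31. Ero1a, an oxidase of protein folding, rose from 44.8 to 51.2 CPM in CTRL to 91.4 to 210 CPM (log2 fold change 1.5 ± 0.184 SE, adjusted p = 7.05e-06), and Bhlhe40, a transcription factor, had a log2 fold change of 2.09 ± 0.374 SE (adjusted p = 0.000235; without replicate 2, 1.43 and 1.5e-07). Stc2, a secreted glycoprotein, was at 0 to 0.266 CPM in CTRL, near the counting limit, and 0.680 to 25.3 CPM (median 0.921) in CML 2wk (adjusted p = 0.000279). The histone demethylase gene Kdm4b (log2 fold change -0.76 ± 0.0967 SE, adjusted p = 1.01e-05), the nuclear receptor gene Rora (log2 fold change -0.74 ± 0.174 SE, adjusted p = 0.00198) and the stress-response gene Ndrg1 (log2 fold change -0.70 ± 0.151 SE, adjusted p = 0.00109) fell, so known hypoxia targets moved in both directions.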

How the data were processed

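Gene counts of 12 bulk RNA-seq libraries were analysed, from CD45.2+ Lin-Sca+Kit+ murine BM cells: 6 CTRL and 6 CML 2wk, grouped by the sample labels. The authors deposited raw read counts per Ensembl gene and library, without normalization. The submitters' processing notes name FastQC 0.11.9, fastp 0.23.2, STAR 2.7.10a, featureCounts 2.0.1, DESeq2 1.36.0 and GRCm39, whereas the methods name other tools and a human build, so which made the counts is unsettled. The annotation, the strand setting and how multi-mapping reads were handled are not given in the sources used here, so overlapping and antisense genes are uncertain.

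Identifiers were matched to GENCODE vM21 symbols (52073 of 56748). The joined length of all annotated exons of a gene in that GRCm38 annotation, an approximation, gave the levels per kilobase. Differential expression was computed over 18438 genes by the quasi-likelihood test of edgeR 4.0.16 (R 4.3.3) after filterByExpr and TMM scaling. P-values were adjusted by the Benjamini-Hochberg method, and 0.05 was the limit for a call. This step was tested on simulated data. Single values were compared by exact permutation tests (scipy 1.17.1). CPM use TMM-scaled library sizes. A count of 0 allows up to 3 counts, a limit that covers counting error alone. Each library differed from every other beyond sampling noise (chi-square over degrees of freedom at least 4.072). Windows of 250 bases came from RefSeq promoters (GRCm38.p6). Copies were annotated pseudogenes with at least 90% identity over at least 300 bases.

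The genes, the lists of further pathway genes and cell type markers, and the tests were chosen with earlier results of these data known. All 35 genes are named. From each further pathway list, the 3 genes with the largest absolute log2 fold change among those called are named in each direction, or fewer where fewer were called. Cell type lists are given as summed CPM and counts of calls, most with defining markers, and Vhl was added after its values were seen. Alternatives changed the scaling, the test (DESeq2 1.42.0, limma-voom of limma 3.58.1), the filter, the threshold, a replicate block, and the libraries. Leaving out CML 2wk replicates 2 and 4 together was chosen after seeing the data. With both left out, edgeR called 23 of the 35 genes. The log2 fold changes were then 0.49 for Slc2a1 (adjusted p = 0.000727), 0.49 for Slc16a3 (adjusted p = 0.00537) and 0.62 for Vegfa (adjusted p = 0.0443). Human BCR::ABL1 is not among the counted genes.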

Additional observations from a re-analysis of the deposited data

Results flagged for a closer look

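Within the groups of 6 libraries, 98 sets of values were examined for a single library far from the others (Dixon's test), and 10 were found where chance gives about 4.9. Of these, 6 were in CML 2wk replicate 2, the library with the highest sum of stromal markers.

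In that library Slc2a1 was at 98.4 CPM (next library 36.7), Slc16a3 at 43.9 CPM (next 17.4) and Vegfa at 112 CPM (next 43.9), and genes with counts numbered 22965, the fewest of its group (next 24870). Its Slc2a1 to Slc2a3 ratio per kilobase was 2.68 (next 1.32) and its Slc16a3 to Slc16a1 ratio 0.134 (next 0.0602). The part of stromal RNA in these values was not tested.

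The other values were Hk3 at 162 CPM in CML 2wk replicate 6 (next 119), Slc16a3 at 14.8 CPM in CTRL replicate 4 (next 10.8), a Slc2a1 to Slc2a3 ratio of 0.603 in CTRL replicate 3 (next 0.490) and a Pfkp to Pfkl ratio of 0.261 in CTRL replicate 5, the lowest of its group (next 0.290).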

How the results depend on the processing

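Of the 35 genes, 23 were called, and 17 to 25 were called in the alternatives: 25 with upper-quartile scaling, 24 with DESeq2, 22 with limma-voom, 22 with no filter, 22 with the replicate block, 20 without replicate 6 of both groups, 17 at an adjusted p under 0.01, and 23 to 25 when 1 library was left out. Replicate numbers did not pair the libraries (correlations of the deviations -0.125 to 0.068), and under the block only the calls of Vegfa (log2 fold change 0.88, adjusted p = 0.052) and H6pd (adjusted p = 0.0757) were lost among the genes named. Of the further pathway genes 40 were called, and 38 to 50 when 1 library was left out, the most without CML 2wk replicate 2. Over all genes 10976 were called, and 10185 to 12007 when 1 library was left out; upper-quartile scaling moved the median log2 fold change of all genes from 0.07 to 0.14.

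Calls lost elsewhere were those of Aldoa (adjusted p = 0.0508 with no filter, 0.0592 without replicate 6 of both groups), Pdk3 (0.0804 with upper-quartile scaling), Egln1 (0.0727 without replicate 6 of both groups) and Vegfa (0.0724 with limma-voom, 0.0591 without replicate 6 of both groups). Gapdh gained the call in 7 of 23 settings, Pgd in 2 and Pdk1 in 1. The cause was not tested.

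The sign changed only for genes that passed no test there or with all libraries. With no filter the log2 fold changes of G6pdx, Pgls and Taldo1 were -0.039, -0.064 and -0.024, and with upper-quartile scaling those of Pfkfb3 and Tkt were 0.045 and 0.014. Without replicate 6 of both groups Pfkfb3, Pgls and Taldo1 were at 0.029, -0.044 and -0.043. With single libraries left out, the values ranged from -0.102 to 0.004 for Pfkfb3, -0.079 to 0.086 for G6pdx, -0.037 to 0.056 for Pgls and -0.042 to 0.077 for Taldo1. Depth was lower and the spread larger in CML 2wk, and their part in the precision was not tested.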
